A study of Mus musculus with 24 samples.

Results

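The genes described here belong to the antioxidant response of NRF2: Nfe2l2, the gene of NRF2 itself, and 9 genes that NRF2 is known to induce, namely Hmox1, Srxn1, Gclc, Gclm, Nqo1, Txnrd1, Gsr, Slc7a11 and Osgin1. They were taken by symbol from the deposited transcript table, where 25 of 129299 transcripts carried 1 of these symbols, and the estimated counts of those transcripts were summed to 10 of the 45777 genes. All 10 were among the 19690 genes that passed the filter on low counts. The study sequenced lung RNA of wild-type male mice of the C57BL6j strain, 8 to 12 weeks old (young) or 22 to 24 months old (old). At each age 4 libraries came from sham operated mice, 4 from mice 1 h after reperfusion and 4 from mice 1 day after reperfusion, which makes 24 libraries in 6 groups. In the reperfused mice the artery, vein and bronchus of the left lung had been clamped together for 60 min. The labels give neither the time at which sham lungs were taken nor which lung was sequenced, and they do not say that each library is an animal of its own. The p-values below set differences between groups against the spread among these libraries, which may be less than the spread among mice.

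NRF2 is a transcription factor that is made all the time and kept scarce: in unstressed cells the adaptor KEAP1 presents it to a CUL3 ubiquitin ligase for degradation. Oxidants and electrophiles modify cysteines of KEAP1, NRF2 then accumulates, pairs with a small MAF protein (Maff, Mafg or Mafk) and binds antioxidant response elements near its targets. BACH1, a repressor released by heme, occupies many of the same elements, those of Hmox1 among them. In the lung the pathway is known as a defence of epithelium and macrophages against oxidants, which ischemia and reperfusion produce.

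Promoter stretches are shown because this pathway acts through short DNA elements, of which only those close to start sites were searched for here. RefSeq promoter windows on GRCm38.p6 (250 bases before to 50 after a start) were available for 7 of the 10 genes in 9 windows, the exceptions being Hmox1, Gclc and Gsr. Both strands were searched for the core of the antioxidant response element, TGACNNNGC, and for the AP-1 site TGANTCA, which can share bases with that core. The core was found in 4 of the 9 windows and the AP-1 site in 2, against 12.4% and 7.81% of all 32851 windows. Every match that lies before a start is printed with its flanks, 5′ to 3′ on the gene's strand, with the match in capitals. The stretches are chr2:75704875-75704913 on the minus strand for Nfe2l2 and, on the plus strand, chr2:152105402-152105505 for Srxn1, chr3:122245403-122245451 for Gclm, chr8:119437030-119437076 for Osgin1 and chr10:82859094-82859142 for Txnrd1.
Nfe2l2: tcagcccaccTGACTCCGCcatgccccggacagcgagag
Srxn1: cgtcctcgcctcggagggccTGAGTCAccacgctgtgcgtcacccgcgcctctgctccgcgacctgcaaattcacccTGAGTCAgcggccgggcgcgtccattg
Gclm: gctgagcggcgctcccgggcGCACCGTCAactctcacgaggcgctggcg
Osgin1: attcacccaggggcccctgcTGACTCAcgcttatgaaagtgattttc
Txnrd1: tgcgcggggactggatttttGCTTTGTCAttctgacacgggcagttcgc
The capitals mark an antioxidant response core in Nfe2l2, Gclm and Txnrd1, where Gclm and Txnrd1 hold it as its reverse complement, and AP-1 sites in Srxn1 (2 of them) and Osgin1 (1). Srxn1 also held a core after its start, in the part of the window not shown, so it was the 1 window with both motifs, as were 1.17% of all windows. With 2 flanking bases, the Srxn1 site nearer the start reads TGAGTCAGC, as does the reverse complement of the Osgin1 site. That is 1 letter off the core as searched, which asks for C at letter 4, so a looser core would have counted both. No match was found in the windows of Nqo1 and Slc7a11 or in the 2 further windows of Txnrd1. A match describes these letters and is not evidence of binding. Bases outside the windows were not searched, so a window without a match does not mean that the gene lacks the element.

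Library totals ran from 27850677 to 44504824 estimated reads. Relative to the mean of all libraries, expression rose with the GC content of genes in the young reperfused libraries and fell with it in the others. Spearman's rho across 18144 genes ran from 0.29 to 0.42 (young 1 h), from 0.20 to 0.44 (young 1 day) and from -0.34 to -0.02 (the 16 other libraries). Genes are not independent replicates, and this trend moves with the groups that the comparisons use, so its removal is an alternative named beside several results. The share of estimated counts on mitochondrial genes differed between the same groups: 2.68% to 3.44% in young sham, 0.776% to 1.53% in the young reperfused libraries and 2.53% to 4.38% in the old libraries. Its part in the results was not tested. Srxn1 and Osgin1 are GC-rich (percentiles 95.3 and 95.8 of the genes tested), and Slc7a11 and Nfe2l2 are AT-rich (14.5 and 17.9). Changes below are relative to TMM-scaled libraries, in which the median log2 change of all genes against sham lay between -0.032 and 0.023. On the deposited TPM scale that median was -0.17 in young 1 h, -0.15 in young 1 day, -0.12 in old 1 h and -0.03 in old 1 day. With limma on log2(TPM + 1) the share of calls against sham that were higher was 23.0%, 34.9%, 25.6% and 44.7% in these 4 groups, against 51.4%, 51.8%, 49.9% and 55.1% with edgeR.

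At 1 h most of the genes rose in both ages. In young 1 h lungs 7 of 10 rose and 0 fell against young sham, where 21.2% of all genes were higher and 20.1% lower. In old 1 h lungs 8 of 10 rose and 0 fell, where 12.6% of all genes were higher and 12.6% lower. At 1 day 2 rose (Hmox1 and Srxn1) and 1 fell (Osgin1) in young lungs, where 27.9% of all genes were higher and 26.0% lower, while in old lungs 7 rose and 0 fell, where 20.0% were higher and 16.3% lower. These calls are those of edgeR's quasi-likelihood test with a Benjamini-Hochberg adjusted p under 0.05 over all 19690 genes. The 10 genes were chosen with earlier results of these data known. Their counts beside the shares of all genes, here and below, are therefore description and not an independent test. The median log2 change of the 10 genes was 1.16 in young 1 h, 0.93 in old 1 h, 0.047 in young 1 day and 0.66 in old 1 day, beside all-gene medians of 0.015, 6e-04, -0.032 and 0.023 (in the order young 1 h, old 1 h, young 1 day, old 1 day). In bulk tissue, more cells of a type and more RNA per cell cannot be told apart. The comparisons of 1 h and of 1 day within an age share their sham libraries.

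CPM ranges of the sham and the reperfused libraries did not overlap for 8 of the 10 genes in young 1 h, all higher, where 21.0% of all genes were so separated. The same held for 8 genes in old 1 h (16.4% of all genes) and 7 in old 1 day (17.6%). In young 1 day 2 genes lay wholly above sham (26.7% of all genes) and 2 wholly below (24.1%). With any 1 library left out, 7 genes were called in young 1 h, 8 in old 1 h, 7 or 8 in old 1 day and 2 to 4 in young 1 day.

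**Figure D1:**
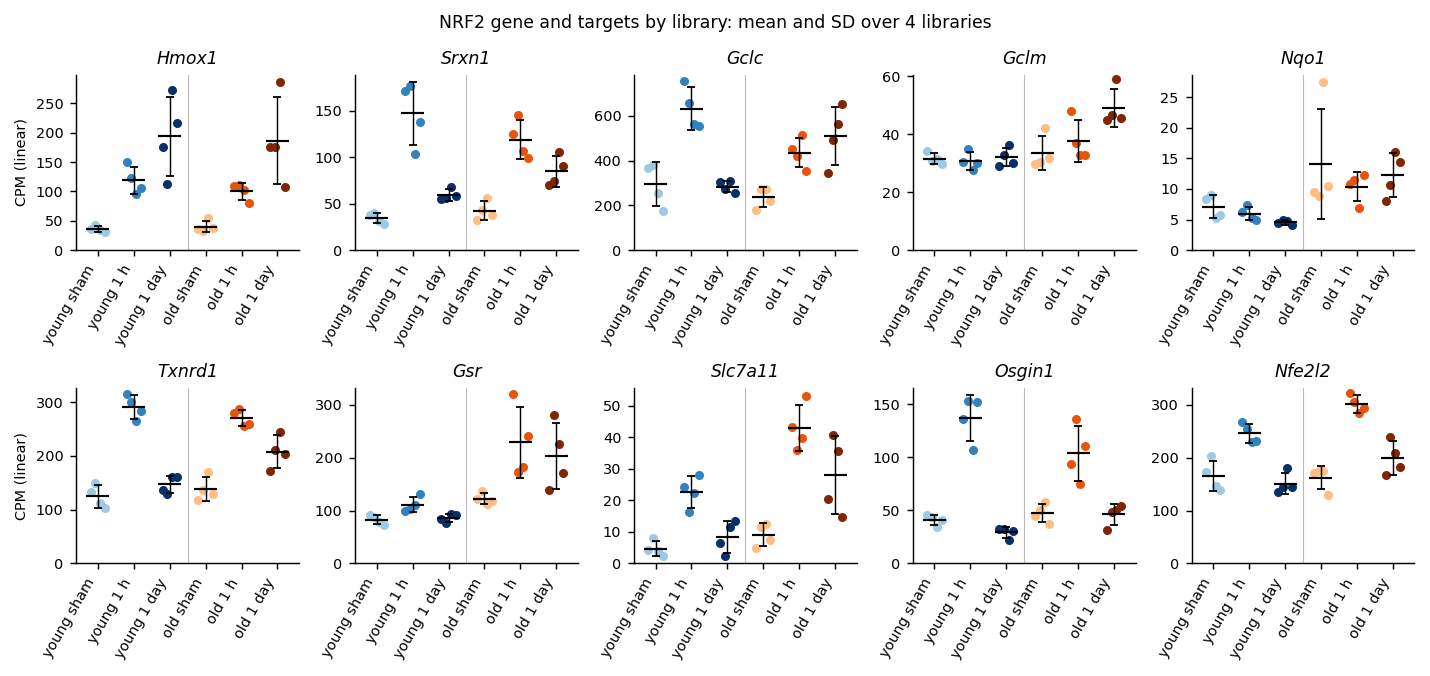
CPM (each library scaled to its TMM-adjusted total, linear axes) of the 10 genes in each of the 24 libraries, with the mean and SD of the 4 libraries of a group as black lines. In the Srxn1 panel the 4 young 1 h libraries lie between 103 and 176 CPM and the 4 young sham libraries between 28.3 and 40.2. The mean of Hmox1 is highest at 1 day in both ages, and that of Gclm in old 1 day (49.1 CPM).

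Nfe2l2 (Entrez 18024, chromosome 2, 75675513 to 75704663, mm10) encodes NRF2, whose protein is set mainly by degradation, so that its mRNA and its activity can differ. Its levels in the 4 libraries were 172, 203, 146 and 139 CPM in young sham, 268, 254, 229 and 232 in its 1 h group, and 135, 144, 179.8 and 145 in its 1 day group. In old lungs they were 171, 174, 174 and 129.97 CPM in sham, 322, 306, 284 and 294 at 1 h, and 167, 239, 208 and 182 at 1 day. All 1 h libraries thus lay above all sham libraries of their age, whereas the 1 day libraries overlapped sham in both ages. The log2 change at 1 h was 0.57 ± 0.13 in young lungs (adjusted p = 0.000944) and 0.89 ± 0.13 in old lungs (adjusted p = 3.05e-05). At 1 day the log2 changes of -0.13 ± 0.13 and 0.30 ± 0.13 did not pass the test (adjusted p = 0.406 and 0.0725). The young rise at 1 h was 0.29 on the TPM scale and did not pass there (limma, adjusted p = 0.0804). The young change at 1 day was -0.37 there and passed (adjusted p = 0.0217). Without old 1 day library 1 the old change at 1 day was 0.35 and passed (edgeR, adjusted p = 0.0442).

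Hmox1 (Entrez 15368, chromosome 8, 75093618 to 75100593) encodes heme oxygenase 1, which breaks heme down to biliverdin, iron and carbon monoxide. Young sham libraries held 35.2, 43.3, 34.6 and 31.1 CPM, young 1 h libraries 151, 122, 96.2 and 106, and young 1 day libraries 175, 112, 273 and 217. Old sham libraries held 36.0, 32.7, 54.5 and 37.5 CPM, old 1 h libraries 109.7, 110.3, 102 and 79.8, and old 1 day libraries 176, 176, 287 and 108. No reperfused library of either age came down to a sham library of its age, and 1 h and 1 day overlapped in both ages. Against sham Hmox1 was 3.29-fold higher in young 1 h (log2 1.72 ± 0.26, adjusted p = 2.27e-05) and 2.5-fold in old 1 h (1.32 ± 0.26, adjusted p = 0.000813). A day after reperfusion it was 5.39-fold higher in young (2.43 ± 0.27, adjusted p = 1.91e-07) and 4.65-fold in old lungs (2.22 ± 0.27, adjusted p = 2.61e-06). It was the gene with the largest rise at 1 day in both ages, of the 10. Its spread among the 1 day libraries was wide, with an SD of 67.6 CPM around 194 in young and of 74.1 CPM around 187 in old lungs.

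Srxn1 (Entrez 76650, chromosome 2, 152105524 to 152111376) encodes sulfiredoxin, which repairs peroxiredoxins that peroxide has over-oxidised, and its promoter stretch above carries 2 AP-1 sites. It read 37.5, 40.2, 31.9 and 28.3 CPM in young sham, 172, 176, 103 and 138 in its 1 h group, and 55.1, 55.9, 68.2 and 58.4 in its 1 day group. In old lungs it read 32.5, 42.7, 56.2 and 37.4 CPM in sham, 125, 146, 107 and 98.8 at 1 h, and 69.6, 74.0, 106 and 90.6 at 1 day. In young lungs the 3 groups did not overlap at all, with 1 h highest and 1 day in between. In old lungs both reperfused groups lay above sham and overlapped each other. The rise at 1 h was 4.26-fold in young (log2 2.09 ± 0.19, adjusted p = 3.70e-08) and 2.82-fold in old lungs (log2 1.495 ± 0.19, adjusted p = 6.80e-06). At 1 day it was 1.72-fold in young (0.78 ± 0.18, adjusted p = 0.00106) and 2.02-fold in old lungs (1.01 ± 0.18, adjusted p = 0.000217). With the GC trend removed the young change at 1 day was 0.36 and did not pass (adjusted p = 0.134).

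Txnrd1 (Entrez 50493, chromosome 10, 82833951 to 82897724) encodes the cytosolic reductase that keeps thioredoxin reduced. Its levels were 134, 149.8, 112 and 103 CPM in young sham, 316, 301, 264 and 283 in its 1 h group, and 137, 129, 161 and 161 in its 1 day group. Old sham libraries read 118, 137, 170.5 and 129 CPM, old 1 h libraries 279, 287, 255 and 259.5, and old 1 day libraries 172, 210.5, 245 and 204. All 1 h libraries lay above all sham libraries of their age, with an SD of 22.3 CPM around 291 in young and of 15.2 around 270.2 in old lungs, and old 1 day lay between old sham and old 1 h with no overlap. The 1 h rise was 2.33-fold in young (log2 1.22 ± 0.13, adjusted p = 1.71e-07) and 1.95-fold in old lungs (0.96 ± 0.13, adjusted p = 1.22e-05). At 1 day the young change of 0.24 ± 0.12 did not pass (adjusted p = 0.115), and old lungs were 1.5-fold higher (0.58 ± 0.12, adjusted p = 0.000986). Without young sham library 2 the young change at 1 day was 0.33 and passed (adjusted p = 0.0411).

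Glutathione is made from cysteine in 2 steps, and the first is catalysed by glutamate-cysteine ligase, whose catalytic subunit is encoded by Gclc (Entrez 14629, chromosome 9, 77754535 to 77794489) and whose modifier subunit by Gclm (Entrez 14630, chromosome 3, 122245487 to 122267215). The subunits moved unequally. Gclc read 366, 382, 256 and 175 CPM in young sham, 755, 657, 563 and 555 in its 1 h group, and 302, 272, 308 and 254 in its 1 day group. Old lungs held 179, 275, 275 and 221 CPM in sham, 452, 423, 512 and 354.5 at 1 h, and 345, 490.1, 561 and 651 at 1 day. Young 1 day libraries thus lay inside the range of young sham, whereas all old 1 day libraries lay above old sham. The log2 change of Gclc at 1 h was 1.10 ± 0.21 in young (adjusted p = 0.000249) and 0.88 ± 0.21 in old lungs (adjusted p = 0.00407). The 1 day value was -0.053 ± 0.21 in young (adjusted p = 0.850) and 1.11 ± 0.21 in old lungs (adjusted p = 0.000353). Gclm stayed between 27.5 and 36.1 CPM in all 12 young libraries and changed by -0.038 ± 0.13 at 1 h and 0.024 ± 0.13 at 1 day (adjusted p = 0.843 and 0.889). Old libraries of Gclm ran from 29.7 to 42.0 CPM in sham, 32.7 to 48.1 at 1 h and 44.98 to 59.0 at 1 day. The old change was 0.17 ± 0.13 at 1 h (adjusted p = 0.359) and 0.55 ± 0.13 at 1 day (adjusted p = 0.00177), where no library overlapped sham. Its promoter stretch above holds an antioxidant response core, as does that of Txnrd1, which rose at 1 h in both ages.

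Slc7a11 (Entrez 26570, chromosome 3, 50364936 to 50499087) encodes xCT, the transporter that brings in cystine, the source of the cysteine for glutathione. It was scarce, with 64 to 1652 estimated counts per library. Young sham libraries read 4.31, 8.05, 3.84 and 2.47 CPM, young 1 h libraries 24.1, 16.2, 22.2 and 28.1, and young 1 day libraries 6.34, 2.29, 11.6 and 13.3. Old sham libraries read 4.87, 11.6, 12.5 and 7.34 CPM, old 1 h libraries 43.3, 36.0, 39.7 and 53.1, and old 1 day libraries 20.5, 40.8, 35.8 and 14.6. Both 1 h groups stood clear of sham, old 1 day stood clear of old sham, and young 1 day reached from below the lowest to above the highest young sham library. The rise at 1 h was 4.82-fold in young (log2 2.27 ± 0.45, adjusted p = 0.000377) and 4.74-fold in old lungs (2.25 ± 0.44, adjusted p = 0.000863). At 1 day it was 3.08-fold in old lungs (1.62 ± 0.43, adjusted p = 0.00607), and the young change of 0.84 ± 0.44 did not pass (adjusted p = 0.114). That young value passed with the GC trend removed (1.22, adjusted p = 0.0292), without young sham library 2 (1.25, adjusted p = 0.0353) and without young 1 day library 2 (1.15, adjusted p = 0.0195).

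Gsr (Entrez 14782, chromosome 8, 33653238 to 33698162) encodes glutathione reductase, which returns oxidised glutathione to its reduced form at the cost of NADPH. Its levels were 90.7, 88.3, 79.1 and 72.2 CPM in young sham, 99.3, 103, 111 and 132 in its 1 h group, and 83.9, 77.3, 93.2 and 92.1 in its 1 day group. In old lungs they were 121, 137, 113 and 118 CPM in sham, 319, 173, 182 and 240.3 at 1 h, and 139, 279.97, 227 and 170.2 at 1 day. Every old library thus read higher than every young library of the same condition. The log2 change at 1 h was 0.90 ± 0.18 in old lungs (adjusted p = 0.00106), and in young lungs 0.43 ± 0.18, which did not pass (adjusted p = 0.0657) although no young 1 h library overlapped sham. The 1 day change was 0.74 ± 0.18 in old (adjusted p = 0.00341) and 0.069 ± 0.18 in young lungs (adjusted p = 0.774). Fitted to the young sham and 1 h groups alone, the young change at 1 h passed (edgeR, adjusted p = 0.00830).

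Within most groups the level of Gsr moved with neutrophil markers from library to library. The summed CPM of 6 neutrophil markers (S100a8, S100a9, Cxcr2, Ly6g, Retnlg and Csf3r) was 407 to 741 in young and 809 to 1084 in old sham, 954 to 2059 in young and 1579 to 6540 in old lungs at 1 h, and 375 to 727 in young and 567 to 4806 in old lungs at 1 day. In 5 of the 6 groups, all but young 1 day, the order of the 4 libraries by Gsr was the order by this sum, which was noticed after the values were seen. Of the other 9 genes only Nfe2l2 showed it, in 1 group. Part of the order rests on close sums, as 954 and 958 in young 1 h libraries 1 and 2. In young 1 day, library 3 had the lowest sum (375) and the highest Gsr level (93.2 CPM). Old 1 h library 1 held the highest sum (6540) and the highest Gsr level (319 CPM). Without it the old change of Gsr at 1 h was 0.69 ± 0.17 (edgeR, adjusted p = 0.00675), and without old 1 day library 2, the highest of its group in both, the change at 1 day was 0.53 ± 0.18 (edgeR, adjusted p = 0.0271). Between old sham and old 1 h all 6 neutrophil markers rose, and 5 of 6 did in old 1 day, against 2 of 6 in young 1 h and 0 of 6 in young 1 day. Of all genes 12.6% (old 1 h), 20.0% (old 1 day), 21.2% (young 1 h) and 27.9% (young 1 day) were higher. The part of these markers in the result was not tested.

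**Figure D2:**
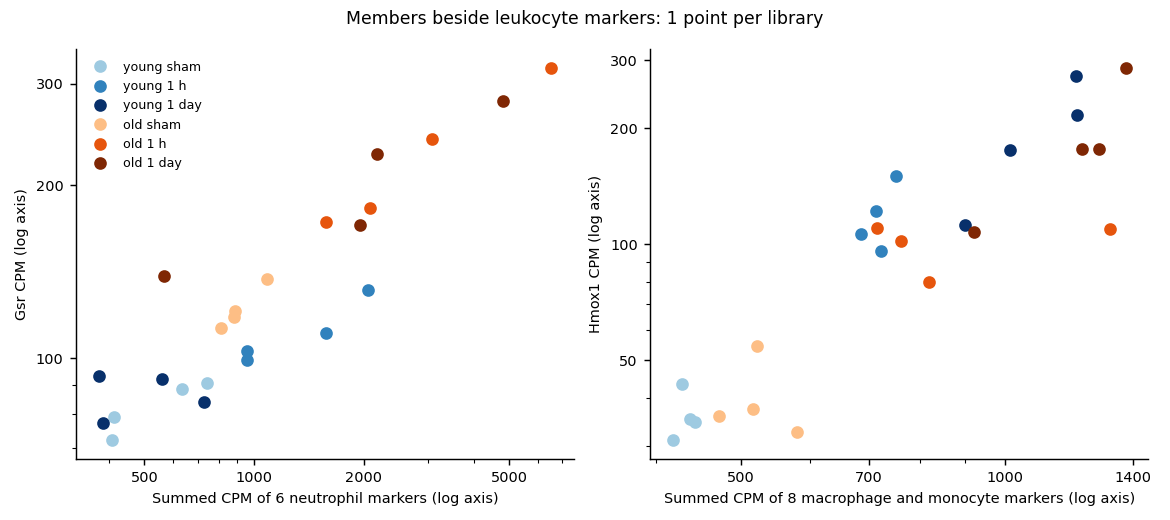
Each point is a library. Left, Gsr CPM against the summed CPM of 6 neutrophil markers; right, Hmox1 CPM against the summed CPM of 8 macrophage and monocyte markers; all axes are logarithmic. Gsr runs from 72.2 CPM in a young sham library to 319 in the old 1 h library with the highest neutrophil sum, and Hmox1 is at most 54.5 CPM in the sham libraries and at least 79.8 in the reperfused ones.

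Nqo1 (Entrez 18104, chromosome 8, 107388225 to 107403205) encodes a reductase of quinones and is often used as a marker of NRF2 activity, yet it rose in no comparison with sham. Young libraries ran from 5.33 to 8.96 CPM in sham, 4.93 to 7.38 at 1 h and 4.03 to 4.97 at 1 day. Old libraries ran from 8.93 to 27.5 CPM in sham, 6.91 to 12.3 at 1 h and 8.04 to 16.1 at 1 day. All young 1 day libraries were below all young sham libraries, but the change of -0.65 ± 0.31 did not pass (adjusted p = 0.0763), and the change at 1 h was -0.26 ± 0.30 (adjusted p = 0.529). The old changes were -0.45 ± 0.30 at 1 h and -0.20 ± 0.30 at 1 day (adjusted p = 0.291 and 0.638). They turned to 0.098 and 0.33 without old sham library 3, the one at 27.5 CPM, and did not pass then either (edgeR, adjusted p = 0.816 and 0.297). The young fall at 1 day passed with limma on log2(TPM + 1) (-0.75, adjusted p = 0.0302), with DESeq2 (-0.68, adjusted p = 0.0483) and with young sham and 1 day fitted alone (edgeR, adjusted p = 0.0146).

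Osgin1 (Entrez 71839, chromosome 8, 119425882 to 119446257) encodes a growth inhibitor induced by oxidative stress, and its promoter stretch above holds 1 AP-1 site. It read 45.6, 44.0, 34.5 and 40.6 CPM in young sham, 136, 153, 107 and 152 in its 1 h group, and 32.5, 32.7, 21.9 and 30.45 in its 1 day group. In old lungs it read 44.8, 50.1, 58.2 and 37.6 CPM in sham, 94.2, 136, 74.9 and 110.4 at 1 h, and 31.8, 48.9, 50.7 and 53.9 at 1 day. The 1 h libraries of each age thus lay above all its sham and 1 day libraries. The rise was 3.33-fold in young (log2 1.74 ± 0.19, adjusted p = 3.88e-07) and 2.18-fold in old lungs (1.12 ± 0.19, adjusted p = 0.000170). In young 1 day it lay below sham with no overlap (-0.49 ± 0.19, adjusted p = 0.0321), and in old 1 day it overlapped sham (-0.041 ± 0.19, adjusted p = 0.886). The young fall did not pass without young sham library 1, young sham library 2 or young 1 day library 3 (edgeR, -0.46 to -0.39, adjusted p up to 0.10).

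**Figure D3:**
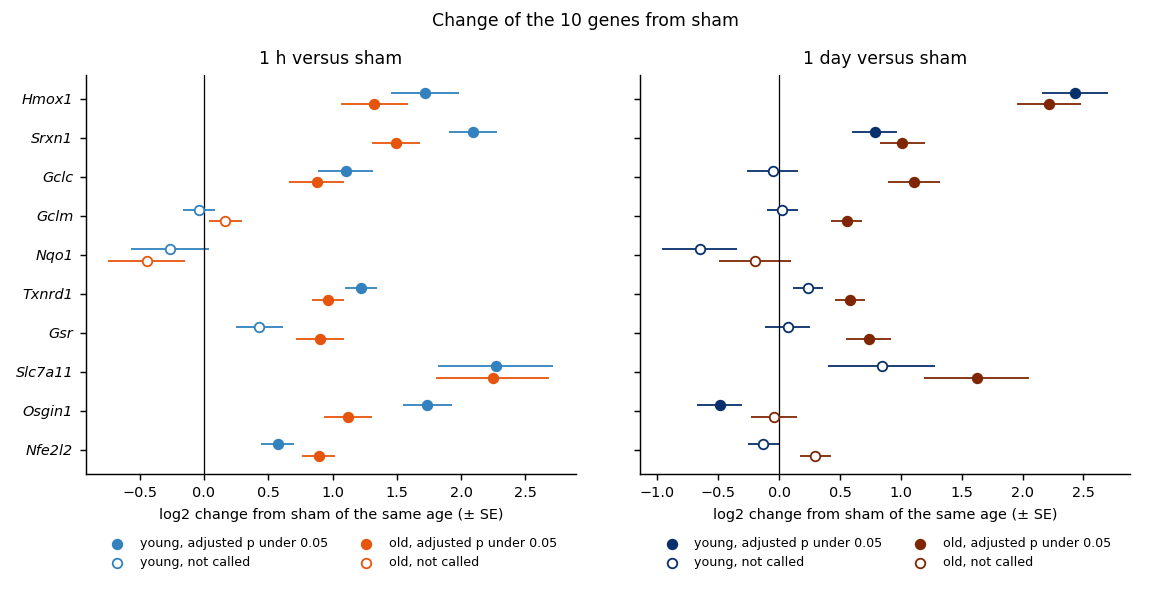
Log2 change of each gene from the sham group of its age at 1 h (left) and 1 day (right), with horizontal bars of 1 SE; filled points have an adjusted p under 0.05. At 1 h the filled points run from 0.57 (Nfe2l2, young) to 2.27 (Slc7a11, young), and at 1 day Gclc stands at -0.053 in young and 1.11 in old lungs.

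Between 1 h and 1 day the genes parted. In young lungs 6 of 10 fell and 1 rose, where 22.1% of all genes fell and 24.5% rose. The falls were Osgin1 (-2.22 ± 0.19, adjusted p = 3.77e-08), Slc7a11 (-1.43 ± 0.43), Srxn1 (-1.31 ± 0.18), Gclc (-1.15 ± 0.21), Txnrd1 (-0.99 ± 0.13) and Nfe2l2 (-0.70 ± 0.13), all with edgeR and with no overlap between the groups, as 16.4% of all genes were, lower at 1 day. Hmox1 alone rose further (0.71 ± 0.26, adjusted p = 0.0273), with overlapping libraries. In old lungs 4 fell and 2 rose, where 20.9% of all genes fell and 24.1% rose. Osgin1 (-1.17 ± 0.19, adjusted p = 4.54e-05), Nfe2l2 (-0.60 ± 0.13, adjusted p = 0.000665), Srxn1 (-0.48 ± 0.18, adjusted p = 0.0344) and Txnrd1 (-0.38 ± 0.12, adjusted p = 0.0168) fell, and Hmox1 (0.89 ± 0.26, adjusted p = 0.00746) and Gclm (0.39 ± 0.13, adjusted p = 0.0169) rose. Gclc, Gsr and Slc7a11 did not pass in old lungs (0.23, -0.17 and -0.62, adjusted p = 0.384, 0.487 and 0.239).

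Several of these calls were lost when 1 library was left out. The further rise of Hmox1 did not pass in young lungs without 1 h library 3 or 4 or 1 day library 3 or 4 (edgeR, 0.51 to 0.66), or in old lungs without 1 day library 3 (0.59, adjusted p = 0.0590). In old lungs Gclm did not pass without 1 h library 3 or 4 or 1 day library 3 (edgeR, 0.27 to 0.31), Srxn1 without 1 h library 1 or 2 or 1 day library 1 or 2 (-0.48 to -0.39), and Txnrd1 without 1 day library 1 (-0.31, adjusted p = 0.0621). The old falls of Srxn1 and Txnrd1 also did not pass with limma on log2(TPM + 1) (-0.38 and -0.28, adjusted p = 0.0953 and 0.0790) or on the most abundant transcripts (-0.50 and -0.34, adjusted p = 0.0599 and 0.0962). On those transcripts the young rise of Hmox1 did not pass (0.68, adjusted p = 0.0607), and with the old groups fitted alone the rise of Gclm did not (0.39, adjusted p = 0.0685).

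Old and young sham lungs did not differ in any of the 10 genes at an adjusted p under 0.05, where 2.31% of all genes did. With edgeR 3 of them had an unadjusted p under 0.05: Nqo1 (0.99 ± 0.30, adjusted p = 0.0954), Gsr (0.57 ± 0.18, adjusted p = 0.118) and Slc7a11 (0.95 ± 0.44, adjusted p = 0.336). Gsr was the 1 gene with no overlap (122 ± 10.6 CPM in old and 82.6 ± 8.55 in young sham, SD, n = 4), as 6.75% of all genes were, higher in old. DESeq2 called 1 (Nqo1, adjusted p = 0.0347), and edgeR fitted to the sham groups alone called 1 (Gsr, adjusted p = 0.00533). Without old sham library 3 the Nqo1 difference was 0.43 (edgeR, adjusted p = 0.499).

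At 1 h old lungs were higher than young in 2 genes and lower in 1, where 20.5% of all genes were higher and 21.5% lower. Gsr was 2.06-fold higher in old (log2 1.04 ± 0.18, adjusted p = 0.000131), in 4 of 4 libraries above all young ones, and stayed called without any 1 library (0.84 to 1.15). Nqo1 was higher by 0.80 ± 0.30 (edgeR, adjusted p = 0.0386) and Gclc lower by 0.54 on the log2 scale (SE 0.21, adjusted p = 0.0435). Both of those calls ended with the GC trend removed (0.63 and -0.50, adjusted p = 0.126 and 0.0766). Gclc also did not pass without young 1 h library 1 or 2 or old 1 h library 1, 2 or 4 (edgeR, -0.55 to -0.44). Nor did Nqo1 without young 1 h library 1, 3 or 4 or old 1 h library 1, 2 or 4 (0.71 to 0.82). Slc7a11 (0.92 ± 0.42, adjusted p = 0.0852) and Nfe2l2 (0.29 ± 0.13, adjusted p = 0.0656) had higher, separate ranges in old lungs, as 19.7% of all genes did, and did not pass. Both passed with the groups fitted alone (edgeR, adjusted p = 0.00297 and 0.0179) and with limma on log2(TPM + 1) (0.86 and 0.36, adjusted p = 0.0241 and 0.0341). Nfe2l2 also passed with DESeq2 (0.32, adjusted p = 0.0407), and with the GC trend removed it was at -0.0031. Gclm passed with limma on log2(TPM + 1) (0.33, adjusted p = 0.0420) and without young 1 h library 2 or old 1 h library 3 or 4, and Osgin1 without young 1 h library 3 or old 1 h library 2 (-0.50 and -0.56).

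At 1 day 9 of the 10 genes were higher in old lungs and 0 lower, where 25.1% of all genes were higher and 25.1% lower. The differences were 1.73 ± 0.44 for Slc7a11 (adjusted p = 0.00255), 1.44 ± 0.31 for Nqo1 (adjusted p = 0.000560), 1.24 ± 0.19 for Gsr (adjusted p = 1.40e-05) and 0.85 ± 0.21 for Gclc (adjusted p = 0.00208). They were 0.66 ± 0.19 for Osgin1 (adjusted p = 0.00592), 0.61 ± 0.13 for Gclm (adjusted p = 0.000424), 0.52 ± 0.18 for Srxn1 (adjusted p = 0.0224), 0.50 ± 0.12 for Txnrd1 (adjusted p = 0.00220) and 0.40 ± 0.13 for Nfe2l2 (adjusted p = 0.0118). The libraries of the 2 ages did not overlap in 7 of these genes, all but Osgin1 and Nfe2l2, as 18.0% of all genes did not. Hmox1, with 194 ± 67.6 CPM in young and 187 ± 74.1 in old lungs (SD, n = 4), was the exception, at -0.058 ± 0.25 (adjusted p = 0.869). Markers differed between the same groups: 6 of 6 neutrophil genes were higher in old 1 day than in young 1 day (median log2 2.46), 4 of 8 macrophage and monocyte genes higher and 1 lower, 4 of 4 alveolar type 1 genes lower and 3 of 4 alveolar type 2 genes lower. Their part in the result was not tested. The median difference of the 10 genes was 0.64, beside 0.019 for all genes. Removing the GC trend ended the call of Nfe2l2 (0.075, adjusted p = 0.641). Srxn1 did not pass without young 1 day library 1, 2 or 4 or old 1 day library 3 or 4 (edgeR, 0.37 to 0.49), and Nfe2l2 without young 1 day library 1 or old 1 day library 2 (0.33 and 0.29).

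The change from sham was compared between the ages directly, as old change minus young change. At 1 h it differed in 0 of the 10 genes with edgeR, where 17.5% of all genes differed, and DESeq2 also called 0. Unadjusted, 2 had a p under 0.05, Osgin1 (-0.61 ± 0.26, adjusted p = 0.115) and Srxn1 (-0.60 ± 0.26, adjusted p = 0.117), and Srxn1 passed without young 1 h library 3 (-0.73, adjusted p = 0.0439). At 1 day 2 of the 10 differed, both higher in old lungs, where 15.2% of all genes were higher and 15.2% lower. Gclc differed by 1.16 ± 0.30 (adjusted p = 0.00546) and held without any 1 library (1.00 to 1.34). Gclm differed by 0.53 ± 0.18 (adjusted p = 0.0298). Gsr and Nfe2l2 were at 0.67 ± 0.26 and 0.43 ± 0.18 (adjusted p = 0.0551 and 0.0767), and Hmox1 at -0.21 ± 0.36 (adjusted p = 0.697). Gclm did not pass without young sham library 1, young 1 day library 1 or 4, old sham library 1, 2 or 4, or old 1 day library 3 (edgeR, 0.41 to 0.49). With the GC trend removed Osgin1 passed as well (0.80, adjusted p = 0.0300), and limma on log2(TPM + 1) called 5 genes, adding Gsr, Nfe2l2 and Txnrd1 (0.78, 0.61 and 0.50). Gsr also passed with DESeq2 (0.66, adjusted p = 0.0423), with the 4 groups fitted alone (edgeR, adjusted p = 0.0390) and without old 1 day library 1 or 4 (0.80 and 0.73). Nfe2l2 also passed without young sham library 4, young 1 day library 3 or old 1 day library 1 (0.49 to 0.51). On the most abundant transcripts Gclm did not pass (0.55, adjusted p = 0.0555). The share of calls among all genes that were higher in old lungs was 46.0% at 1 h and 50.1% at 1 day with edgeR, and 64.4% and 67.0% with limma.

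Compared per length, on the deposited TPM scale, the order of the 10 genes shifted with the condition. Gclc was the most abundant in 5 of 6 groups, from 153 ± 31.1 TPM in old sham to 348 ± 43.3 in young 1 h (SD, n = 4). In young 1 day Hmox1 came first at 243 ± 88.8 TPM, having ranked 5 of 10 in young sham at 52.8 ± 8.78 TPM. Srxn1 moved from rank 8 in both sham groups (28.3 ± 4.88 TPM in young, 33.5 ± 8.71 in old) to rank 6 in young 1 h (98.6 ± 19.7 TPM). Slc7a11 was the least abundant in all 6 groups, with means of 1.17 to 9.27 TPM, and Nqo1 ranked 9 in all 6, with means of 5.74 to 20.4 TPM. Gsr ranked 7 in young 1 h and 3 in old 1 h (79.0 ± 11.4 and 169 ± 45.3 TPM).

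Ordered by mean CPM, Hmox1 ran from young sham through old sham, old 1 h, young 1 h and old 1 day to young 1 day, and of the 5 steps only the one from old sham to old 1 h was larger than the ranges of the libraries. For Srxn1 the order was young sham, old sham, young 1 day, old 1 day, old 1 h and young 1 h, and only young 1 day and old 1 day did not overlap as neighbours. Txnrd1 had separate neighbours at 2 steps, young 1 day to old 1 day and old 1 day to old 1 h. In Gclc, Gclm and Nqo1 all neighbours overlapped.

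By the median of each group, 1 transcript held most of the TPM of each of the 10 genes. Hmox1, Srxn1, Gsr and Nqo1 are listed with 1 transcript each. A noncoding transcript of Gclc held 7.39% of the gene's TPM in young 1 h and 2.91% in young 1 day (medians), but 42.4% in old sham library 2 and 39.9% in old 1 day library 1. Counted on its most abundant transcript alone, Gclc in old against young 1 day was at 0.68 (edgeR, adjusted p = 0.0854). The noncoding transcript of Nfe2l2 went in median share from 8.26% (young sham) to 4.34% (young, 1 h) and 3.46% (young, 1 day), and was 10.7% in old 1 day. Shares of overlapping transcripts are estimates, and annotated genes overlap Gclm, Txnrd1, Gsr and Osgin1, whose reads could be shared where counting ignored strand.

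The wider pathway was followed with 42 genes in 7 lists. In young 1 h 21 rose and 1 fell, in old 1 h 11 rose and 2 fell, in young 1 day 17 rose and 7 fell, and in old 1 day 19 rose and 4 fell. Of all genes 21.2%, 12.6%, 27.9% and 20.0% were higher and 20.1%, 12.6%, 26.0% and 16.3% lower in these 4 comparisons, which is the background for each list below. The detoxification list (2, 1, 2 and 2 of 9 higher) lay near or below that background. So did the glutathione list in old 1 h (1 of 9 higher) and old 1 day (2 of 9). The heme and iron list in old 1 h (1 of 6 higher) did as well, as did the NRF2 regulators in young 1 day (1 of 7) and old 1 day (2 of 7). The median log2 changes of the 42 genes were 0.27, 0.08, 0.14 and 0.22, beside the all-gene medians given above. These lists were put together with earlier results of these data known.

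Among 7 regulators of NRF2, 6 rose in young 1 h and 4 rose and 1 fell in old 1 h. Of the small MAF partners, Mafk rose 4.01-fold from 86.4 to 347 CPM in young (log2 2.00 ± 0.17, adjusted p = 1.81e-08) and by 1.54 ± 0.17 in old lungs (adjusted p = 1.71e-06), and Maff by 1.82 ± 0.29 in old lungs (adjusted p = 0.000106). Maff also rose in young 1 h, from 50.7 to 251 CPM (2.31 ± 0.29, adjusted p = 2.71e-06). Keap1, the adaptor that has NRF2 degraded, went from 71.4 to 52.5 CPM in old 1 h (-0.44 ± 0.075, adjusted p = 0.000193). In young 1 h it went from 70.5 to 85.1 CPM (0.27 ± 0.075, adjusted p = 0.00605), a call that ended with the GC trend removed (-0.048, adjusted p = 0.584) and on the TPM scale (limma, 0.0013, adjusted p = 0.992). At 1 day Keap1 rose in young lungs to 112 CPM (0.67 ± 0.075, adjusted p = 1.73e-07) and was at 0.097 ± 0.075 in old lungs (adjusted p = 0.332). The change of Keap1 differed between the ages at 1 h (-0.71, adjusted p = 0.000389) and at 1 day (-0.58, adjusted p = 0.000448). On its most abundant transcript alone none of these Keap1 calls passed (edgeR, -0.61 in old 1 h, 0.40 in young 1 h, 0.68 in young 1 day, and -1.01 for the age difference at both times, adjusted p = 0.0778 to 0.371). The repressor Bach1 rose at 1 h in young (0.48 ± 0.15, adjusted p = 0.0132) and old lungs (0.58 ± 0.15, adjusted p = 0.00671, ended on its most abundant transcript) and fell in young 1 day (-0.39 ± 0.15, adjusted p = 0.0317). Without young sham library 3 or young 1 h library 2 the young rise did not pass, and without young sham library 1 or 2 or young 1 day library 2 or 3 the fall did not (edgeR, 0.39 to 0.41 and -0.39 to -0.34). The young rise also did not pass on the TPM scale (limma, 0.21, adjusted p = 0.243), and the fall did not with the GC trend removed (-0.29, adjusted p = 0.129). Old 1 day Bach1 was at 0.20 ± 0.15 (adjusted p = 0.326).

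Sqstm1, the autophagy receptor p62 that binds KEAP1, rose from 369.8 to 907 CPM in young 1 h (log2 1.29 ± 0.11, adjusted p = 1.37e-08) and from 388 to 770.3 in old 1 h (0.99 ± 0.11, adjusted p = 1.43e-06). Among 9 genes of glutathione synthesis and conjugation, 5 rose in young 1 h, 1 in old 1 h, 4 rose and 4 fell in young 1 day, and 2 rose and 2 fell in old 1 day. Slc3a2, the partner chain of xCT, rose in young 1 h from 237 to 488 CPM (1.04 ± 0.11, adjusted p = 1.87e-07). The transferase Gstp1 rose in young 1 day from 71.6 to 151 CPM (1.08 ± 0.10, adjusted p = 2.17e-08), though reads could be split with its near-identical copy Gstp2. Of 4 thioredoxin and peroxiredoxin genes 2, 1, 2 and 3 rose in young 1 h, old 1 h, young 1 day and old 1 day. Glutaredoxin (Glrx) rose in old 1 day from 19.1 to 62.8 CPM (1.72 ± 0.16, adjusted p = 1.26e-07).

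Of 6 NADPH genes 4 rose in young 1 day and 5 in old 1 day, against 3 up and 1 down in young 1 h and 2 up in old 1 h. Of 6 heme and iron genes 4 rose at 1 day in each age, 2 in young 1 h, and 1 rose and 1 fell in old 1 h. Blvrb, a biliverdin reductase downstream of heme oxygenase, rose in young 1 day from 16.9 to 64.6 CPM (1.93 ± 0.15, adjusted p = 1.28e-09). The ferritin heavy chain gene Fth1 rose at 1 day from 1757 to 4999 CPM in young (1.51 ± 0.14, adjusted p = 1.58e-08) and from 1892 to 5093 in old lungs (1.43 ± 0.14, adjusted p = 1.99e-07). At 1 h Fth1 rose in young (0.82 ± 0.14, adjusted p = 6.28e-05) and was at 0.30 ± 0.14 in old lungs (adjusted p = 0.115), and the difference between the ages did not pass (-0.52, adjusted p = 0.0708). With the compared groups fitted alone both passed (edgeR, adjusted p = 0.0143 and 0.00179). Fth1 has many processed pseudogenes, which can take some of its reads. Of 9 quinone, carbonyl and other detoxification genes 2 rose in young 1 h, 1 in old 1 h, 2 rose and 1 fell in young 1 day, and 2 rose and 2 fell in old 1 day. The epoxide hydrolase Ephx1 fell in old 1 day from 236 to 89.6 CPM (-1.40 ± 0.14, adjusted p = 1.57e-07).

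**Figure D4:**
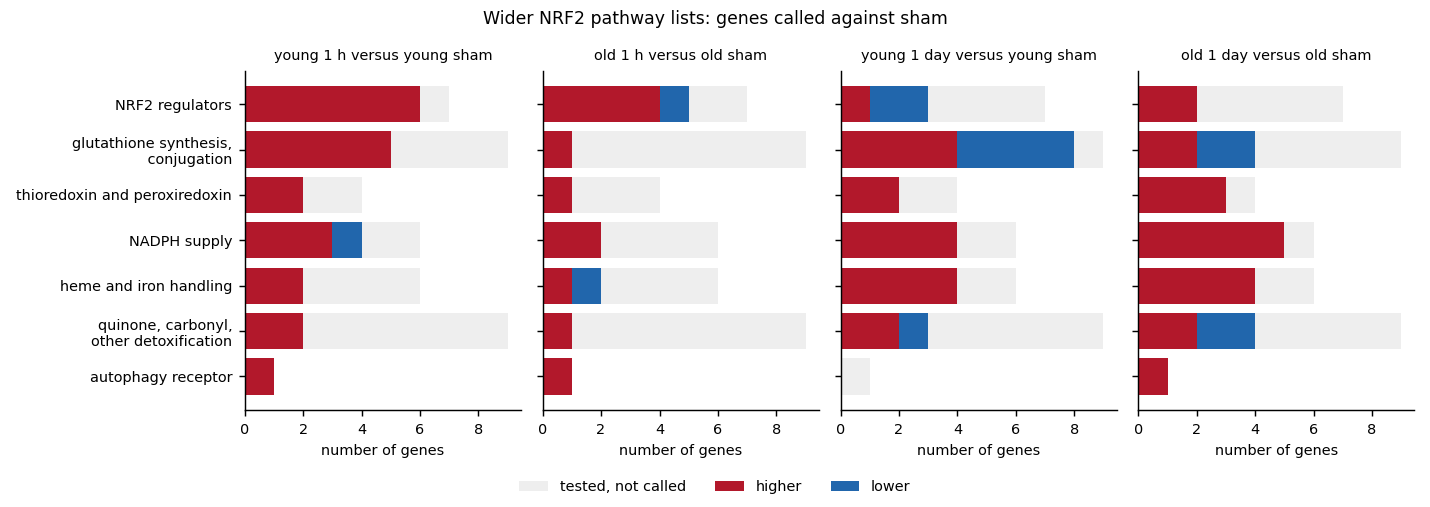
Number of genes in each of 7 wider pathway lists (horizontal axis) that were higher (red), lower (blue) or tested and not called (grey) against the sham group of their age, 1 panel per comparison. Of the 7 NRF2 regulators 6 are higher in young 1 h, and of the 6 NADPH and 6 heme and iron genes 5 and 4 are higher in old 1 day.

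Cell type markers moved in these lungs too. Against sham 21.2% (young 1 h), 12.6% (old 1 h), 27.9% (young 1 day) and 20.0% (old 1 day) of all genes were higher. In the same order 20.1%, 12.6%, 26.0% and 16.3% were lower. Counts of 1 gene in a list lay near these shares. Alveolar type 2 markers (Sftpc, Sftpb, Lamp3, Slc34a2) summed to 6212 to 25700 CPM and endothelial markers to 1868 to 3717, so both were present in all 24 libraries, and the defining markers of both lists were at 0 in none. Of 8 macrophage and monocyte markers 3 rose at 1 h in each age, 6 in young 1 day and 7 in old 1 day. Their sum was 418 to 443 CPM in young and 472 to 579.5 in old sham, 685 to 752 in young and 714 to 1318 in old lungs at 1 h, and 900.0 to 1207 in young and 922 to 1372 in old lungs at 1 day. The sum was thus highest at 1 day in young lungs, as the mean of Hmox1 was. Within groups, the order of all 4 libraries by Hmox1 was exactly the order by this sum in 0 of 6 groups. That count does not show partial likeness. At 1 day the library with the lowest sum had the lowest Hmox1 level in young (900.0 and 112 CPM) and old lungs (922 and 108 CPM). It went the other way in old sham, where the highest sum (579.5) had the lowest Hmox1 level (32.7 CPM), and in old 1 h, where the lowest sum (714) had the highest (110.3 CPM). Of the 6 alveolar macrophage markers 1 fell in old 1 h, 1 rose and 3 fell in young 1 day and 2 rose and 2 fell in old 1 day. Of 4 alveolar type 1 genes 4 fell in old 1 h and 3 in old 1 day, and 1 rose at each time in young lungs. Of 4 alveolar type 2 genes 2 fell at 1 h in each age, 1 rose in young 1 day and 1 fell in old 1 day. Of 4 endothelial genes 2 rose in young 1 h and 1 fell in each of the other 3 groups. Of 4 airway secretory genes 3 fell at 1 day in each age, and 1 of them, Bpifa1, was at 0 in an old sham library. Of 4 mesothelial genes 4 fell in young 1 h, 3 in young 1 day, 3 in old 1 h and 1 in old 1 day. Of 5 red cell genes 0 were called in these comparisons with edgeR, although all 5 lay wholly above old sham in old 1 h, with a median log2 change of 0.67. Their summed level there was 4948 to 6615 CPM, against 2226 to 4457 in old sham. The 3 liver genes (Alb, Apoa1, Ttr; at most 23.4 CPM summed, with Apoa1 and Ttr at 0 in some libraries) fell in young 1 h and young 1 day and rose in old 1 day. Their part in the results above was not tested.

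The genes whose levels were most like Hmox1 across the 24 libraries, by the root mean square difference of centred log2 CPM, were Ptges (0.36), Lgals3 (0.37) and Metrnl (0.39), where the log2 level of Hmox1 itself varied by 1.00 around its mean. Lgals3 stands in the macrophage and monocyte list above. Most like Srxn1 were Kctd11 (0.23), Odc1 (0.24) and P2ry2 (0.24), where Srxn1 varied by 0.79. None of the other 9 genes was among the 3 nearest to either. In centred log2 CPM Hmox1 stood at -1.33, 0.38 and 1.04 in the young sham, 1 h and 1 day groups and at -1.19, 0.15 and 0.97 in the old ones. Srxn1 stood at -1.04, 1.04 and -0.24 in the young and -0.76, 0.75 and 0.26 in the old groups.

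**Figure D5:**
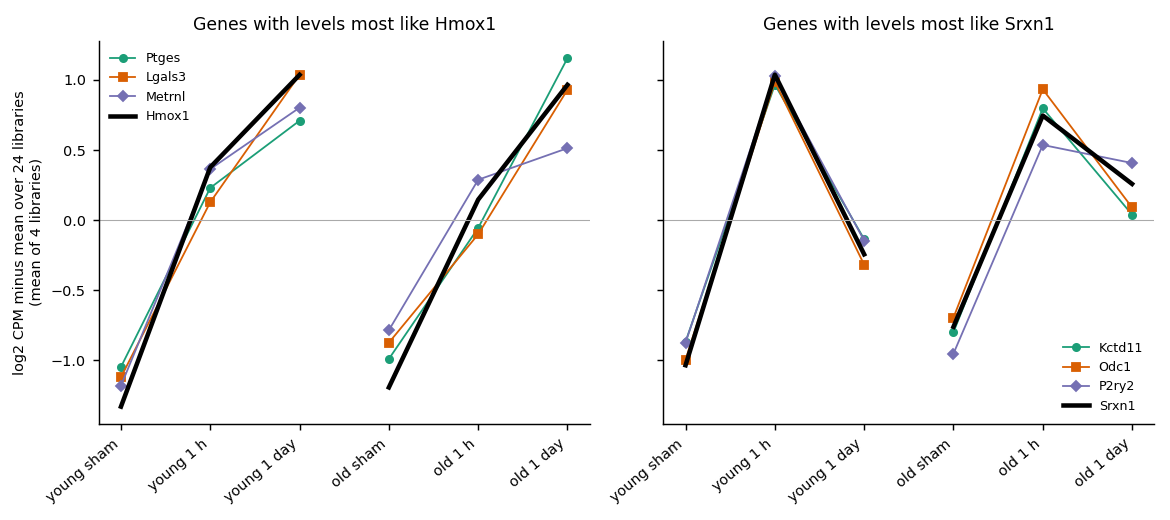
Centred log2 CPM (mean of the 4 libraries of a group) of Hmox1 (left) and Srxn1 (right) in black, with the 3 genes nearest to each across 24 libraries in colour; lines join groups of 1 age. Hmox1 and its nearest genes are highest at 1 day (1.04 in young for Hmox1), and Srxn1 and its nearest genes at 1 h (1.04 in young for Srxn1).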

How the data were processed

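Lung RNA of 24 libraries was sequenced after a stranded mRNA library preparation, per the labels' protocols, and mapped and quantified with HISAT2 and StringTie on mm10/GRCm38, per the submitters' processing notes, where versions are absent. The authors' table gives expected counts, FPKM and TPM per RefSeq transcript, all made by the authors: the deposited counts are estimates, since 96.6% to 97.4% of the values under 50 equalled FPKM times length times a constant, rounded up. The deposited FPKM served for that check only, and the deposited TPM for an alternative and for levels per length. Estimated counts were summed by gene symbol, filtered with filterByExpr (minimum count 10, 19690 genes kept), scaled by TMM (factors 0.881 to 1.09) and fitted with 6 group means in edgeR 4.0.16 (robust quasi-likelihood F test, R 4.3.3). Tests were two-sided, and p-values were Benjamini-Hochberg adjusted over all 19690 genes. CPM errors are SD over 4 libraries, and the SE of a log2 change is its size over the square root of F. The fit was tested on simulated data. In all, 9 comparisons of 2 groups and 2 age differences in the change were made. Alternatives were size factors and the Wald test of DESeq2 1.42.0, no filter, limma 3.58.1 on log2(TPM + 1) and log2(TPM + 0.1), a replicate block, removal of a GC trend (lowess, span 0.3, 92.1% of genes), the most abundant transcript, the compared groups alone, and each library left out. The 10 genes were given by name. Of the wider lists, Keap1, Bach1, Fth1 and the 3 genes with the smallest p in each comparison with sham were named, and as most like Hmox1 and Srxn1 the 3 nearest genes each, where 5 had been planned; the others are not reported here. The 10 genes and all lists were chosen with earlier results of these data known. Protein sequences were not used here.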

Additional observations from a re-analysis of the deposited data

Results flagged for a closer look

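Within groups of 4 libraries, the highest or lowest library stood apart from the other 3 in 7 of 126 gene-by-group checks, judged by its gap relative to the range of the group. Chance marks about 1 in 20 groups. Old sham library 3 was the highest of its group in Nqo1 (27.5 CPM, others 8.93 to 10.5), Gclm (42.0 CPM, others 29.7 to 31.6) and Gstp1 (121 CPM, others 92.9 to 97.2). Gclm was also highest in old 1 day library 3 (59.0 CPM, others 44.98 to 46.7). Nfe2l2 was lowest in old sham library 4 (129.97 CPM, others 171 to 174), Mafk highest in old sham library 2 (113 CPM, others 79.8 to 83.4), and Glrx highest in old 1 h library 1 (45.6 CPM, others 27.1 to 29.5), the library with the highest neutrophil sum.

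The change from sham differed between old and young lungs in 5 of 26 age differences tested for the named genes (edgeR's quasi-likelihood test, adjusted over all genes). At 1 day it was larger in old lungs for Gclc (log2 difference 1.16), Gclm (0.53) and Bach1 (0.59), and lower in old lungs for Keap1 (-0.58). At 1 h it was lower in old lungs for Keap1 (-0.71). Of all genes 17.5% differed at 1 h, and 15.2% were higher and 15.2% lower in old lungs at 1 day. The 5 of 26 called lay near these shares. The Bach1 difference did not pass without any one of 11 of the 16 libraries it rests on (0.42 to 0.69 over all 16), with the GC trend removed (0.47, adjusted p = 0.133), on the most abundant transcript (1.05, adjusted p = 0.0646) or with no filter (0.58, adjusted p = 0.0583). The Keap1 differences did not pass on the most abundant transcript (-1.01 at 1 h and -1.01 at 1 day, adjusted p = 0.168 and 0.112).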

How the results depend on the processing

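The number of the 10 genes called kept within 1.5 times of its value under every alternative tried in the comparisons of young 1 h, old 1 h and old 1 day with sham, of 1 day with 1 h in both ages, and of old with young 1 day. Without 1 library these were 7 to 7, 8 to 8, 7 to 8, 6 to 7 (young) and 4 to 6 (old), and 7 to 9. In young 1 day the count was 3, and it was 5 with limma on either TPM scale and 2 to 4 without 1 library. Between sham groups it was 0, with 1 by DESeq2, 1 with the groups alone and 0 to 0 without 1 library. In old against young 1 h it was 3, with 5 on log2(TPM + 1), 5 with the groups alone, 1 with the GC trend removed, 1 on the most abundant transcripts and 1 to 4 without 1 library. The age difference at 1 h had 0, and 0 to 1 without 1 library. At 1 day it had 2, with 5 on either TPM scale, 1 on the most abundant transcripts and 1 to 4 without 1 library. The cause was not tested. Libraries with the same number did not deviate together (correlations -0.334 to 0.304), so the numbers were not taken as pairs. With a replicate block the counts were 7, 3, 8 and 7 against sham for young 1 h, young 1 day, old 1 h and old 1 day, 4 in old against young 1 h, and 2 for the age difference at 1 day.

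Of 2554 alternative values of single genes 2354 kept direction and side of the threshold, 95 lost a call, 47 gained one and 58 changed sign. None of the sign changes was of a called value except Keap1 in young 1 h. With the GC trend removed the values that turned were Keap1 in young 1 h (-0.048) and old 1 day (-0.0083), Gclm (-0.032) and Nfe2l2 (0.18) in young 1 day, Srxn1 (0.055) and Nfe2l2 (-0.0031) in old against young 1 h, Hmox1 in old against young 1 day (0.14) and Fth1 in the age difference at 1 day (0.049). With DESeq2's size factors and its Wald test they were Gclm in young 1 day (-0.0054 and -0.0052) and Slc7a11 in the age difference at 1 h (0.0097 and 0.00096). On log2(TPM + 1) and log2(TPM + 0.1) they were Gclm (-0.20 and -0.21) and Gsr (-0.15 and -0.15) in young 1 day, Hmox1 in old against young 1 day (0.048 and 0.048), Nqo1 (0.015 and 0.040) and Slc7a11 (0.31 and 0.11) in the age difference at 1 h, and Fth1 in that at 1 day (0.047 and 0.047). On the most abundant transcripts they were Gclc (0.0097) and Gclm (-0.012) in young 1 day, Keap1 in old 1 day (-0.33) and Gclc in the age difference at 1 h (0.0031), and with the replicate block Slc7a11 there (0.014). Without 1 library the ranges that crossed 0 were, in young 1 day, Gclc -0.26 to 0.090, Gclm -0.055 to 0.057 and Gsr -0.0089 to 0.12. In old lungs they were Nqo1 -0.62 to 0.098 at 1 h and -0.39 to 0.33 at 1 day, Osgin1 -0.17 to 0.081 at 1 day and Gsr -0.36 to 0.013 from 1 h to 1 day. Between young 1 h and 1 day Gclm ran from -0.00012 to 0.13. Between ages they were Gclm -0.056 to 0.13, Hmox1 -0.041 to 0.25 and Nfe2l2 -0.11 to 0.085 in sham, and Hmox1 -0.37 to 0.13 at 1 day. In the age difference they were Bach1 -0.0011 to 0.20, Nqo1 -0.34 to 0.38 and Slc7a11 -0.41 to 0.20 at 1 h and Fth1 -0.21 to 0.063 at 1 day.

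With 4 libraries a group and a biological coefficient of variation of 23.2%, small changes were not detectable, and Slc7a11, at 64 to 1652 estimated counts a library, and Nqo1 had the largest SE of the 10 genes.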
